A study of Mus musculus with 11 samples.

Results

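The 9 genes described here are 3 forkhead box O (FOXO) transcription factors, Foxo1, Foxo3 and Foxo4, and 6 genes known as FOXO1 targets, Klf2, S1pr1, Irs2, Pik3ip1, Sesn3 and Txnip. They are 9 of the 52550 genes in the deposited table, and all 9 were among the 14419 genes with enough reads to be tested. The set was chosen by the normalised read counts of Foxo1, which differed between genotypes in dendritic epidermal T cells (DETCs) and were flat in keratinocytes (KCs), and the question was whether its relatives and targets moved with it. The Foxo1 values of both populations therefore belong to the choice and are given without a test. The targets were named as a set of textbook FOXO1 targets, with earlier results of these data known.

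RNA was sequenced from 11 libraries of sorted epidermal cells of female, 8-week-old mice. LC-/- mice (huLangerin-DTA, labelled DTA) express diphtheria toxin A under the human langerin promoter and lack Langerhans cells, the dendritic cells of the epidermis, throughout life. WT mice were littermates without the transgene. KCs were sorted as MHC-II-, CD45-, langerin- and c-kit- cells from 3 WT and 3 LC-/- mice, and DETCs as MHC-II-, CD45+, langerin- and c-kit- cells from 3 WT and 2 LC-/- mice. Below, WT libraries are called W1 to W3 and LC-/- libraries L1 to L3 by the number in their label, and L1 exists for KCs only. No source used here says whether KC and DETC libraries with the same number came from the same animal. The DETC gate names no T cell receptor, so other CD45+ T cells could enter it.

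FOXO proteins bind DNA and switch on genes of quiescence, stress resistance, autophagy and nutrient saving. When growth factor or antigen receptors activate PI3K, the kinase AKT phosphorylates FOXO proteins and they leave the nucleus, so the amount of mRNA for a FOXO factor and the activity of its protein are separate quantities. In T cells FOXO1 is known to sustain receptors for homing and survival, among them Il7r, Ccr7 and, through Klf2, S1pr1. In insulin-responsive cells FOXO factors raise Irs2 and other genes that feed back on PI3K signaling.

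Values are normalised read counts, which are reads per gene divided by a size factor for the library, and each library held 13491075 to 19750440 reads on genes. Differences are log2(value + 1) in LC-/- less WT with their standard error (SE), and a gene was called when its adjusted p in limma was under 0.05. The sorted populations carried their own markers. All 24 keratinocyte markers were called lower in WT DETCs than in WT KCs, beside 35.1% of all genes tested. The 14 DETC markers were nearly absent from KCs and are given as a sum without a test. It was 10.4 to 22.5 in WT KCs and 257362 to 270432 in WT DETCs. Cd207, the gene of mouse langerin, was at 6.15 to 26.9 in WT KCs, 16.5 to 46.7 in WT DETCs, 0 in the 3 LC-/- KC libraries, and 0 and 4.42 in the LC-/- DETC libraries. The sum of 12 Langerhans cell markers was not lower: 6300 to 6896 in WT KCs and 9657 to 10237 in LC-/- KCs. In DETCs it was 2802 to 3397 in WT and 3062 to 3647 in LC-/-. Of the 9 such markers tested, 3 were called lower and 1 higher in KCs, and 4 lower and 1 higher in DETCs. The DETC libraries also held KC transcripts. By the median over 24 keratinocyte genes, these amounted to 15.3%, 14.3% and 18.1% of the KC level in W1 to W3, 23.5% in L2 and 16.1% in L3. In such bulk samples, fewer cells of a type and less RNA per cell cannot be told apart, and p-values measure the spread between these libraries.

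Foxo1 (ENSMUSG00000044167.6, chr3:52268336-52353221 of GRCm38, plus strand), the FOXO factor best known for T cell homing and for control of insulin-responsive genes, had the values that chose this set. In KCs Foxo1 stood at 1741, 1842 and 1884 in W1 to W3 and at 1746, 1747 and 1793 in L1 to L3. In DETCs Foxo1 stood at 4971, 5668 and 5766 in W1 to W3 and at 13465 and 10616 in L2 and L3. Both LC-/- DETC libraries lay above all WT libraries, while the KC groups overlapped. The mean was 2.20 times the WT mean in LC-/- DETCs and 0.967 times in LC-/- KCs, or log2 differences of 1.13 and -0.05. KC transcripts could account for 4.61% to 5.72% of the Foxo1 value in WT DETCs and for 2.66% to 3.07% in LC-/- DETCs. Annotated genes that overlap Foxo1, one of them antisense, held at most 0.378% of its value, and the strand setting of the counting is not given in the sources used here.

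Foxo4 (ENSMUSG00000042903.8, chrX:101254528-101260873, plus strand), a FOXO factor regulated through the same AKT sites, was the other member that was higher in LC-/- DETCs. Foxo4 measured 827, 987 and 927 in WT DETCs and 1285 and 1260 in LC-/- DETCs. Both LC-/- libraries were above every WT library. The log2 difference was 0.48 (SE 0.10, 95% interval 0.25 to 0.72, limma adjusted p = 0.0460), a mean of 1.39 times WT. The call was narrow. In the 5 fits that each left out 1 of the DETC libraries W1, W2, W3, L2 or L3, the limma adjusted p was 0.0644 to 0.187 and Foxo4 was not called, and it was 0.135 at a log2 difference of 0.53 after the estimated KC part had been subtracted. In KCs the direction was opposite without a call: 772, 667 and 694 in WT and 579, 613 and 593 in LC-/-, a log2 difference of -0.25 (SE 0.06, limma adjusted p = 0.0807), with no overlap between the groups.

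The genotype difference in Foxo4 was itself larger in DETCs than in KCs, by 0.74 on the log2 scale (SE 0.13, limma adjusted p = 0.0217 for the interaction of genotype and population). It was not called in a fit with the number in the library label as a replicate block (0.72, limma adjusted p = 0.141). Over the 11 fits that each left out a library, Foxo4 was called in 7, with limma adjusted p of 0.0239 to 0.0755. The call was lost without the KC libraries W1 (0.0593), W3 (0.0511) or L1 (0.0597), or without the DETC library L2 (0.0755). Foxo4 was 1 of 8 members other than Foxo1 called for this interaction, against 0.798% of all genes tested. By edgeR 1 of 8 was called, beside 0.791% of all genes, and by DESeq2 2 of 8, beside 2.16%. For Foxo1 the corresponding value was 1.18, which the choice of members fixed.

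Foxo3 (ENSMUSG00000048756.11, chr10:42181841-42276755, minus strand), a broadly expressed FOXO factor linked to stress resistance and cell death, did not share this pattern in DETCs. Foxo3 read 1420, 1797 and 1781 in WT DETCs and 1688 and 1761 in LC-/- DETCs, within the WT range. The difference was 0.06 (95% interval -0.22 to 0.33, limma adjusted p = 0.843). Foxo3 counts in KCs were 1269, 1136 and 1228 for WT mice and 1101, 1124 and 994 for LC-/- mice. All LC-/- KC values lay below all WT values, but the difference of -0.18 (SE 0.07) was not called (limma adjusted p = 0.180). Without overlap between groups stood 31.5% of all genes tested in KCs and 37.9% in DETCs, so separated groups were common.

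**Figure D1:**
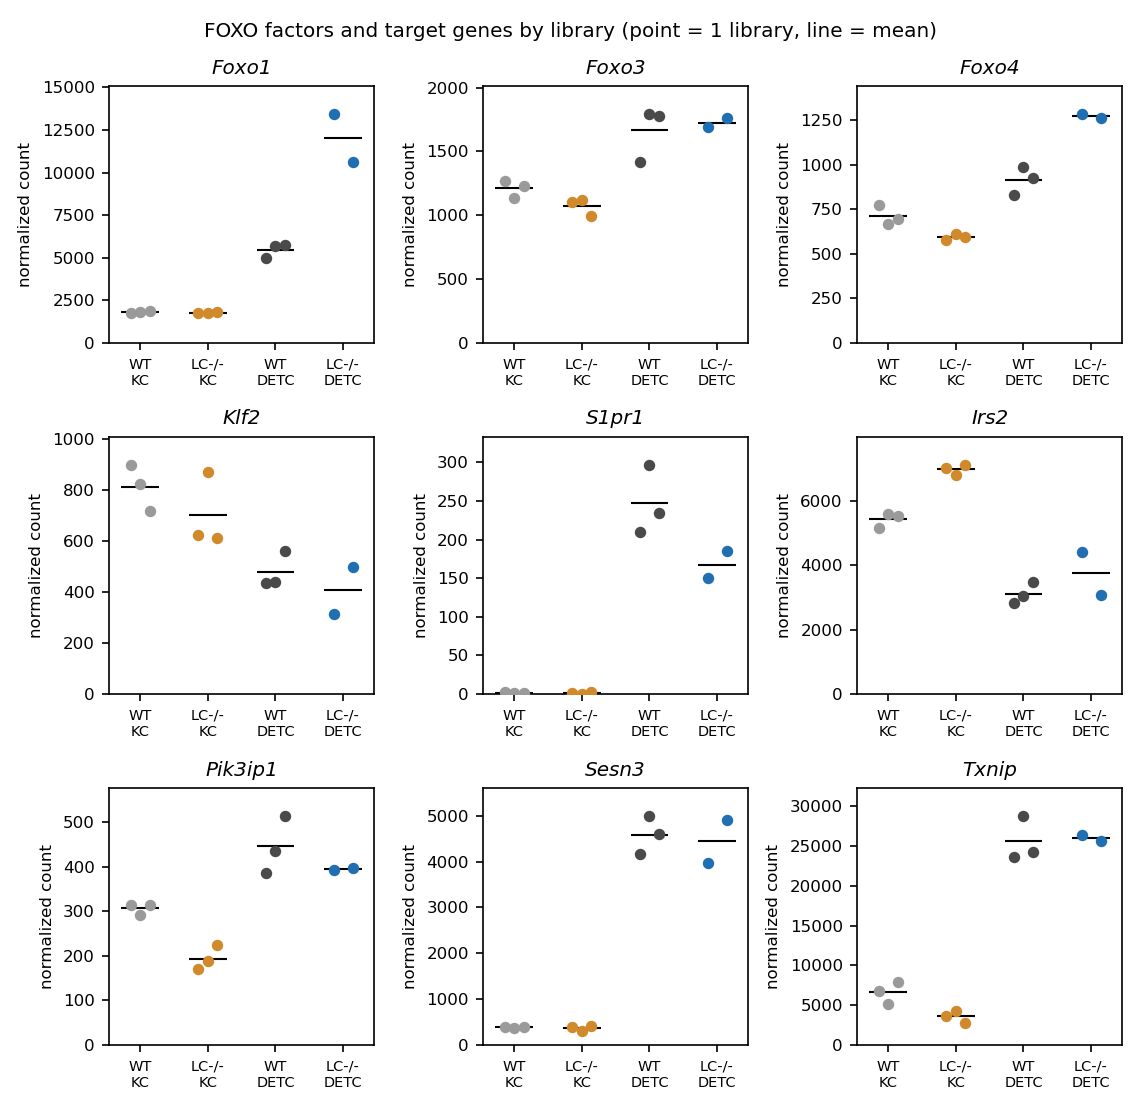
Normalised read count of each of the 9 genes in every library (vertical axes on their own linear scales starting at 0), with KC and DETC libraries side by side, WT and LC-/- in separate columns, points for libraries and short lines for group means. Foxo1 separates LC-/- DETCs (13465 and 10616) from WT DETCs (4971 to 5766), Foxo4 does so on a smaller scale, and Txnip, Sesn3 and Klf2 overlap between the DETC genotypes.

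None of the 6 target genes was called between genotypes in DETCs. With 1 of 6 at an unadjusted p under 0.05 in limma and 0 called by edgeR or DESeq2, their median log2 difference was -0.11, against 0.02 over all genes tested. Among the 8 members other than Foxo1, Foxo4 alone was called in DETCs, beside 3.56% of all genes (3.13% higher and 0.43% lower), 3.35% by edgeR and 7.48% by DESeq2.

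The trafficking genes come first. Klf2 (ENSMUSG00000055148.7, chr8:72319033-72321656, plus strand) encodes a Krüppel-like factor that keeps T cells quiescent and turns on S1pr1. Klf2 counts were 434, 440 and 562 in WT DETCs and 316 and 499 in LC-/- DETCs. Library L2 lay below the WT range and L3 within it, and the difference was -0.26 (95% interval -0.73 to 0.21, limma adjusted p = 0.543). KC transcripts were a large part of this signal, estimated at 26.2% to 28.6% of the Klf2 value in WT DETCs and at 22.6% to 52.3% in LC-/- DETCs. With that part subtracted the Klf2 difference was -0.52 (limma adjusted p = 0.623). S1pr1 (ENSMUSG00000045092.8, chr3:115710433-115715072, minus strand) encodes the sphingosine 1-phosphate receptor by which lymphocytes leave tissues. S1pr1 reached 210, 297 and 234 in WT DETCs and 150 and 185 in LC-/- DETCs. Both LC-/- libraries were below all WT libraries, with a mean 0.678 times WT and a difference of -0.55 (SE 0.19, 95% interval -0.98 to -0.12), which was not called (limma adjusted p = 0.159). KC transcripts contributed at most 0.167% of this value.

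The genes that act on insulin and PI3K signaling overlapped between the DETC genotypes. Irs2 (ENSMUSG00000038894.7, chr8:10984681-11008458, minus strand), an adaptor that links insulin and cytokine receptors to PI3K, measured 2845, 3037 and 3485 in WT DETCs and 4429 and 3095 in LC-/- DETCs. Library L2 was above the WT range and L3 within it, and the difference was 0.25 (95% interval -0.11 to 0.62, limma adjusted p = 0.441). L2 also carried the largest KC share, and KC transcripts could supply 36.3% to 37.1% of the Irs2 value in LC-/- DETCs. With that part subtracted the Irs2 difference was 0.06 (limma adjusted p = 0.915). Pik3ip1 (ENSMUSG00000034614.14, chr11:3330401-3342971, plus strand), a membrane protein that restrains PI3K, measured 386, 437 and 515 in WT DETCs and 394 and 398 in LC-/- DETCs. Both LC-/- values fell inside the WT range, a difference of -0.16 (95% interval -0.48 to 0.16, limma adjusted p = 0.580).

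The stress and nutrient genes were near the WT level in LC-/- DETCs. Sesn3 (ENSMUSG00000032009.8, chr9:14275067-14333101, plus strand) encodes a sestrin, a protein that restrains mTORC1 and counters oxidative stress. In DETCs Sesn3 had 4160, 5002 and 4593 normalised counts in WT and 3963 and 4914 in LC-/-. Library L3 was inside the WT range and L2 just under it, and the difference was -0.05 (95% interval -0.33 to 0.23, limma adjusted p = 0.868). Txnip (ENSMUSG00000038393.14, chr3:96557957-96561883, plus strand) encodes an arrestin-like protein that binds thioredoxin and lowers glucose uptake. Txnip reached 23657, 28841 and 24249 in WT DETCs and 26359 and 25595 in LC-/- DETCs, all within the WT range. Its difference of 0.03 (95% interval -0.27 to 0.33, limma adjusted p = 0.936) changed sign with the scaling, at -0.02 with TMM factors and -0.20 after quantile normalization. Immediate early genes respond to cell preparation, and 1 of 15 such genes was called higher in LC-/- DETCs, beside 3.13% of all genes. The median log2 difference of these genes was 0.33, beside 0.02 over all genes. Their sum was 362430 to 425694 in WT DETCs and 449407 to 507335 in LC-/- DETCs, and its part in the values above was not tested.

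In KCs, where Foxo1 was flat, 2 of the 8 other members were called, beside 7.23% of all genes tested (5.37% higher and 1.85% lower), and both act on PI3K signaling. Irs2 was higher in LC-/- KCs and Pik3ip1 was lower. Irs2 measured 5168, 5586 and 5543 in WT KCs and 7019, 6819 and 7139 in LC-/- KCs. Every LC-/- library was above every WT library. The difference was 0.36 (SE 0.05, 95% interval 0.25 to 0.48, limma adjusted p = 0.0235), a mean 1.29 times WT. Pik3ip1 fell from 315, 292 and 315 in WT KCs to 170, 189 and 224 in LC-/- KCs, again without overlap. The difference was -0.67 (SE 0.11, 95% interval -0.96 to -0.38, limma adjusted p = 0.0383), a mean 0.633 times WT. With 1 KC library left out at a time, Irs2 was called in 1 of 6 fits, that without L2 (limma adjusted p 0.0417, and 0.0581 to 0.0864 in the others), and Pik3ip1 in 0 of 6 (0.0669 to 0.128). Over all genes those fits called 5 to 721, beside 1042 with all KC libraries, so the number of calls fell in general. Quantile normalization gave limma adjusted p of 0.0988 for Irs2 and 0.0540 for Pik3ip1. Both were called by edgeR and DESeq2, which each called 12.4% of all genes. The edgeR adjusted p was 0.00648 for Irs2 and 0.00375 for Pik3ip1, and the DESeq2 adjusted p was 0.000107 and 0.000276.

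Txnip had the lowest LC-/- to WT ratio of the members above the read floor in KCs, and its call depended on the test. Txnip stood at 6843, 5130 and 7911 in WT KCs and at 3709, 4286 and 2786 in LC-/- KCs. The groups did not overlap and the mean was 0.542 times WT. The difference of -0.88 (SE 0.23, 95% interval -1.46 to -0.31) was not called by limma (adjusted p = 0.0823), while edgeR gave an adjusted p of 0.00320 and DESeq2 of 0.00494 on the recovered reads. These tools called 12.4% of all genes each in KCs. A limma fit over all 4 groups gave Txnip an adjusted p of 0.0118, and the same fit gave Irs2 in KCs an adjusted p of 0.0777, which ended its call. The 3 WT values of Txnip spread by 1403 (SD) around a mean of 6628.

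The remaining members were not called in KCs. Klf2 had 901, 823 and 717 normalised counts in WT KCs and 625, 870 and 613 in LC-/- KCs. The groups overlapped through L2, with a difference of -0.22 (95% interval -0.65 to 0.20, limma adjusted p = 0.450). Sesn3 counts were 400, 381 and 402 in WT KCs and 392, 310 and 420 in LC-/- KCs, with a difference of -0.09 (95% interval -0.39 to 0.22, limma adjusted p = 0.703). S1pr1 was at the floor of detection in KCs, with 5 reads over the 3 WT libraries and 3 reads over the 3 LC-/- libraries, so no fold is given. Of the 6 targets in KCs, 1 was called higher and 1 lower by limma, edgeR and DESeq2 each called 3, and the median difference was -0.33 beside -0.01 over all genes. That median lies between Klf2 and S1pr1, so it rests in part on a gene at its floor. Among the targets without S1pr1, Klf2 at -0.22 stood in the middle. No target was called for the interaction of genotype and population in limma. Txnip gave 0.91 (SE 0.26, limma adjusted p = 0.160, DESeq2 adjusted p = 0.0149), Pik3ip1 0.51 (limma adjusted p = 0.326) and Irs2 -0.11 (limma adjusted p = 0.878).

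**Figure D2:**
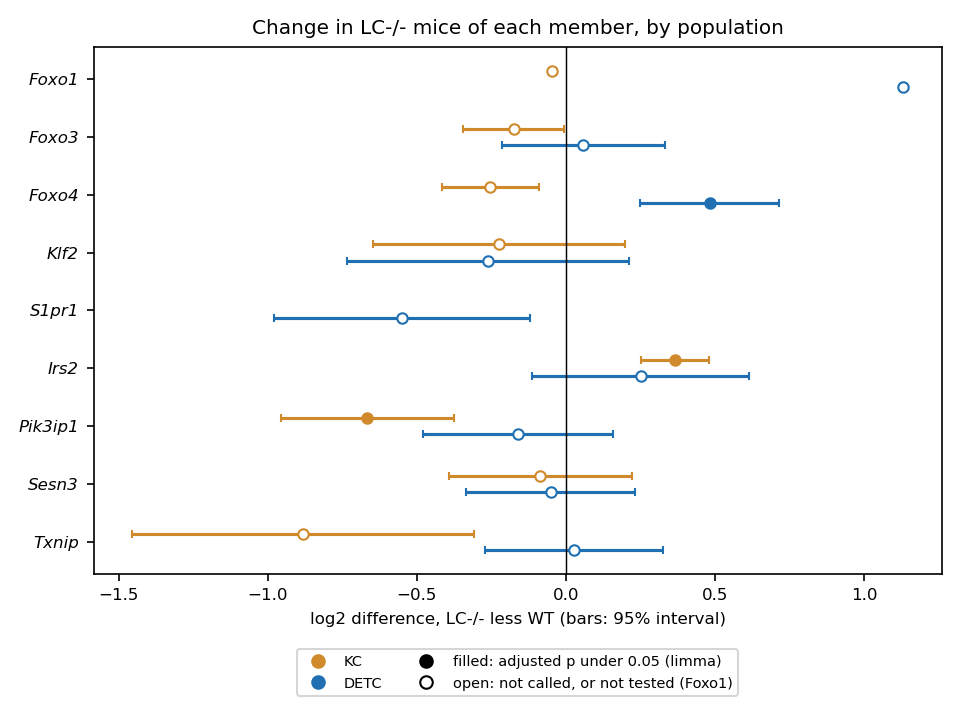
Log2 difference of each gene in LC-/- less WT mice (horizontal axis), in KCs (orange) and DETCs (blue), with 95% intervals from limma; filled points were called and open points were not, and Foxo1 is drawn without an interval because its values chose the set. Irs2 (0.36) and Pik3ip1 (-0.67) are called in KCs and Foxo4 (0.48) in DETCs, while S1pr1 in KCs is left out at its floor of reads.

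Txnip and Irs2 were the members with a match to a FOXO binding sequence in the 250 bases before the RefSeq start. Their promoters are shown. RefSeq promoter sequences were given for 7 of the 9 members, all but Foxo4 and S1pr1. For Irs2 the RefSeq start lies upstream of 11008458, the start by the gene coordinates given above. Each sequence is the 250 bases before the annotated start on GRCm38.p6, read 5′ to 3′ along the gene, at chr3:96557707-96557956 on the plus strand for Txnip and at chr8:11008930-11009179 on the minus strand for Irs2. Capitals in Txnip mark the forkhead motif GTAAACA and a pair of E-box-like elements, CACGNG in 2 copies with 5 bases between them, and in Irs2 they mark the E-box CACGTG and the insulin response sequence TGTTTTG.
Txnip: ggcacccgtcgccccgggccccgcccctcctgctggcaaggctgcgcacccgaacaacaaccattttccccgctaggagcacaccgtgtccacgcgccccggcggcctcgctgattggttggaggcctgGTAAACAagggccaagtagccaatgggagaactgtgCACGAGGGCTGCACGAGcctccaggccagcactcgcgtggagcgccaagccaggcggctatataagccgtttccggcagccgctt
Irs2: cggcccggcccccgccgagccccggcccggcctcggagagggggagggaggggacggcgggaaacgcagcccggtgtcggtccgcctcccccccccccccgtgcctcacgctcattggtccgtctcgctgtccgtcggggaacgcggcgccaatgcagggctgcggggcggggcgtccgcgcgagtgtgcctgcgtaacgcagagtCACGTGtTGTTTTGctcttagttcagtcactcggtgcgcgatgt
On either strand, GTAAACA occurred in 3.65% of 32851 promoters of the same length, TGTTTTG in 6.28%, CACGTG in 7.15% and the paired element in 0.0487%. The paired pattern was spelled out after the Txnip sequence had been read. In LC-/- KCs Txnip and Irs2, which both hold a forkhead-type match, stood on opposite sides of WT, and in DETCs neither was called.

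Between the WT populations, Foxo3, Foxo4, Klf2, Irs2, Pik3ip1, Sesn3 and Txnip were each called, beside 76.0% of all genes (41.0% higher and 35.1% lower in DETCs). The Foxo1 mean, given as a description because its WT values were part of the choice, was 3.00 times as high in WT DETCs as in WT KCs. Foxo3 and Foxo4 were higher by 0.45 and 0.36 (limma adjusted p = 0.00230 and 0.00486), and neither was called after quantile normalization (0.0865 and 0.111). Sesn3 was 11.6 times as high in DETCs (log2 3.53, limma adjusted p = 5.43e-10), Txnip 3.86 times (1.97, 2.18e-06) and Pik3ip1 1.45 times (0.53, 0.00204). S1pr1 was nearly absent from KCs and passed the filter on low values through the DETC libraries alone: 793 reads in WT DETCs against 5 in WT KCs, a ratio of 161 after scaling (95% counting interval 68.8 to 498). Only Klf2 and Irs2 among the members were lower in WT DETCs, by -0.77 and -0.80 (limma adjusted p = 0.000286 and 2.03e-05), at 0.588 and 0.575 times the KC mean.

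Levels were compared between genes as RPKM, reads scaled to the exon length of the gene and to the reads of the library. RPKM uses the total reads and not the size factor, so ratios between groups differ from those of the normalised counts. By RPKM, Foxo1 in KCs was 14.4 to 16.0 in WT and 13.4 to 13.7 in LC-/-, without overlap. The genes are therefore ranked within each group. In WT KCs the order was Txnip at 155 ± 30.1 RPKM (SD, n = 3), Irs2 at 62.9 ± 3.91, Klf2 at 32.2 ± 3.60, Foxo1 at 15.4 ± 0.842 and Foxo4 at 14.9 ± 0.858, with overlapping values for Foxo1 and Foxo4. Foxo3 followed at 11.7, Pik3ip1 at 5.26, Sesn3 at 1.89 and S1pr1 at 0.0382 RPKM. In WT DETCs Txnip again stood first at 513 ± 48.1 RPKM, followed by Foxo1 at 39.5 ± 1.45, Irs2 at 30.9 ± 2.32, Sesn3 at 18.8 ± 1.14, Foxo4 at 16.4 and Klf2 at 16.2, the last pair overlapping. Foxo3 at 13.8, Pik3ip1 at 6.53 and S1pr1 at 5.07 RPKM closed the order, with overlap between Pik3ip1 and S1pr1. Foxo1 was thus the most abundant of the 3 FOXO mRNAs in WT DETCs, while in WT KCs it could not be separated from Foxo4.

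In LC-/- DETCs the order was Txnip at 454 RPKM, Foxo1 at 75.9 ± 13.2 (SD, n = 2), Irs2 at 32.5, Foxo4 at 19.9, Sesn3 at 15.9, Foxo3 at 12.4, Klf2 with a range that overlapped that of Foxo3, Pik3ip1 at 5.06 and S1pr1 at 3.00. Foxo4 stood ahead of Sesn3, the reverse of their order in WT DETCs. In LC-/- KCs Txnip at 77.0 ± 17.9 RPKM (SD, n = 3) overlapped Irs2 at 73.8 ± 0.807, which had been clearly separate in WT KCs. Klf2 at 25.4 RPKM, Foxo1 at 13.6 and Foxo4 at 11.4 followed.

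**Figure D3:**
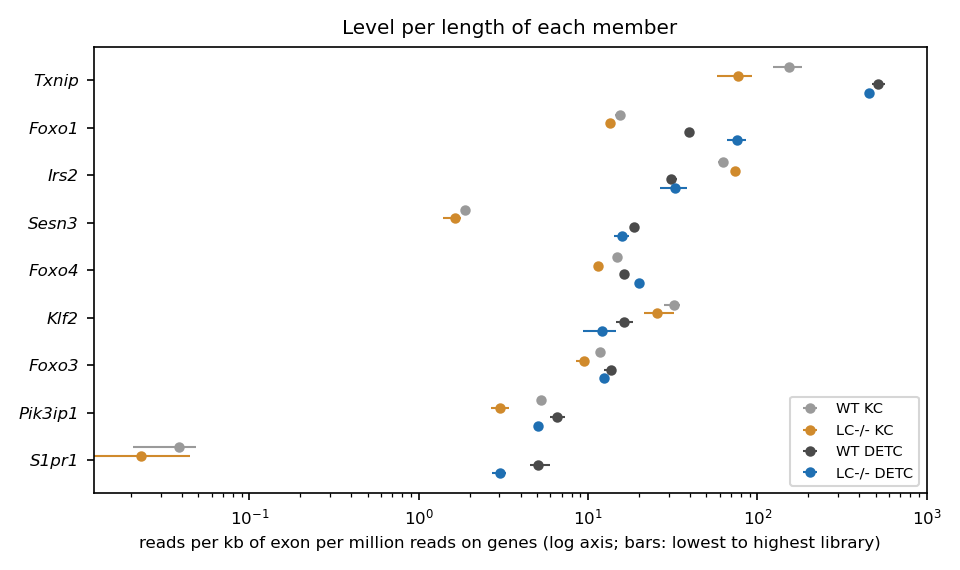
Level of each gene per length in the 4 groups (horizontal axis, RPKM on a log scale), with points for group means and bars from the lowest to the highest library. Txnip stands first in all 4 groups, Foxo1 is second in both DETC groups, and the lower bar of S1pr1 in LC-/- KCs is cut at the axis because 1 library was at 0.

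The wider FOXO program was described with lists of known FOXO target genes. Without the members, 56 further targets were tested. In DETCs 2 were called higher and 1 lower, beside 3.56% of all genes called, with a median log2 difference of 0.02 beside 0.02 over all genes. These counts and medians were not corrected for KC transcripts, whose estimated part varied by gene. For the genes called it was at most 0.0570% for Ccr7 and 0.0213% for Il7r, and 19.3% to 26.6% for Ulk1. For the uncalled Erbb3 and Irs1 it was 107% to 158% and 47.6% to 122%, so their DETC values may be largely KC signal. In KCs 2 were called higher and 2 lower, beside 7.23% of all genes, with a median of -0.04 beside -0.01. One of those called lower, Ripor2, was under the read floor, at 2.05, 0.928 and 0.864 in WT KCs and 0 in LC-/- KCs. For the interaction 0 of 56 were called by limma and edgeR, with 11 at an unadjusted p under 0.05 in limma and 3 called by DESeq2, which called 2.16% of all genes.

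The 13 T cell targets of FOXO1 gave calls in both directions in DETCs. Il7r, the interleukin 7 receptor chain that sustains T cell survival, was lower, at 1654, 1671 and 1866 in WT and 1176 and 965 in LC-/- (difference -0.70, SE 0.11, limma adjusted p = 0.0230). Ccr7, the chemokine receptor for lymph node homing, was higher, at 332, 425 and 476 in WT and 683 and 838 in LC-/- (difference 0.90, SE 0.17, limma adjusted p = 0.0333). The groups did not overlap for either gene. With 1 DETC library left out at a time, Il7r was called in 3 of 5 fits, not without W2 (limma adjusted p = 0.0742) or W3 (0.0845), and Ccr7 in 0 of 5 (0.0530 to 0.0953). Tcf7, a transcription factor of T cell memory, had 6126, 6776 and 6938 in WT and 5899 and 5957 in LC-/-, a difference of -0.16 (limma adjusted p = 0.412). Lef1, its relative, was low and lower in LC-/- DETCs, at 8.74 and 13.3 against 24.0 to 35.0, without a call (limma adjusted p = 0.0819). The summed level of 9 markers of alpha-beta T cells, which express Ccr7 and Lef1, was 12834 to 16230 in WT DETCs and 9153 and 19425 in LC-/- DETCs, on both sides of WT. The part of such cells in these values was not tested.

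**Figure D4:**
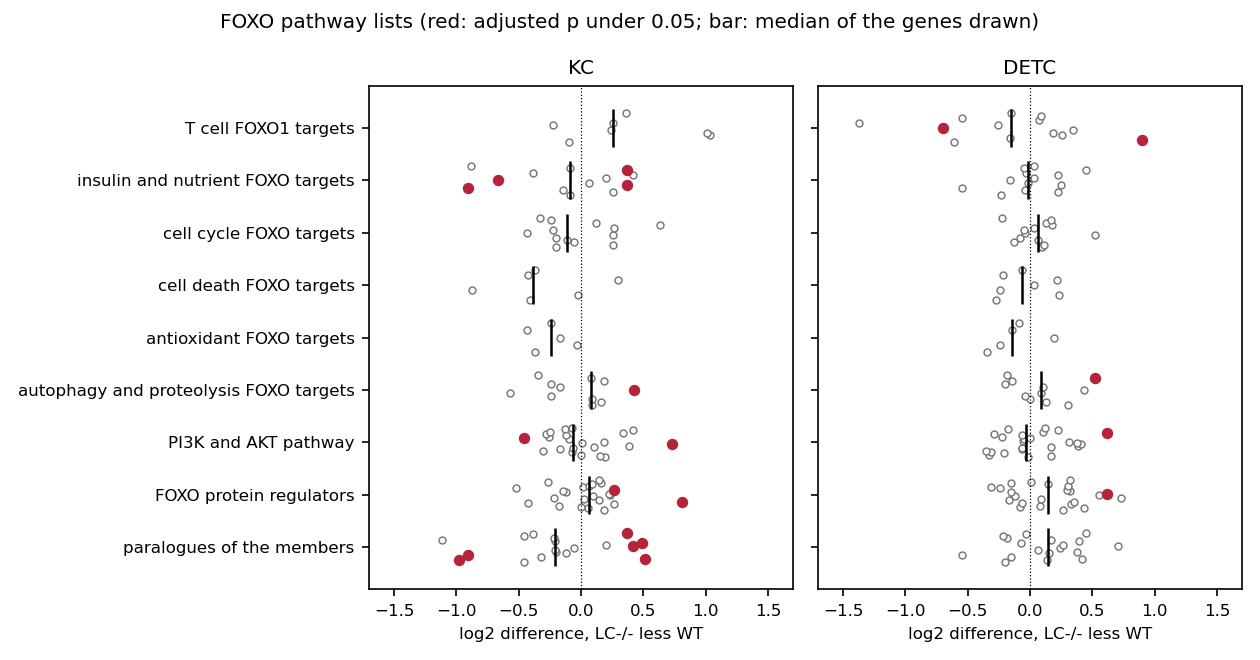
Log2 differences in LC-/- less WT (horizontal axis) of the genes of each FOXO, PI3K and AKT list (rows), in KCs and DETCs, with a point for each gene, filled red where called, and a bar for the list's median. Foxo1 and KC genes with a mean of at most 3 are left out, and calls such as Arrdc3 in KCs (-0.98) and Ccr7 in DETCs (0.90) lie among uncalled genes of the same lists.

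Of the lists on insulin and nutrients (13 tested), the cell cycle (13), cell death (7), antioxidant defence (5) and autophagy and proteolysis (11), only the last held a call in DETCs. Ulk1, the kinase that starts autophagy, was higher there, at 1301, 1299 and 1382 in WT and 2035 and 1785 in LC-/- (difference 0.52, SE 0.09, limma adjusted p = 0.0299). In KCs the insulin and nutrient list held 4 calls among its 13 tested genes, beside 7.23% of all genes. Besides Irs2 and Pik3ip1, Irs1, the other insulin receptor substrate, was lower (402, 301 and 359 against 191, 194 and 175, difference -0.91, limma adjusted p = 0.0251), and Sesn2, a stress-induced sestrin, was higher (difference 0.37, limma adjusted p = 0.0329). Irs1 and Irs2 thus stood on opposite sides of WT. The autophagy gene Gabarapl1 was higher in LC-/- KCs (0.42, limma adjusted p = 0.0373). The cell cycle, cell death and antioxidant lists held 0 calls by limma in KCs, with 7, 2 and 1 genes at an unadjusted p under 0.05, 3, 2 and 1 called by edgeR and 4, 2 and 2 by DESeq2. In DETCs the same lists held 0 calls by limma, with 2, 1 and 1 at an unadjusted p under 0.05, 0 by edgeR, and 1, 0 and 0 by DESeq2. The insulin and nutrient list held 0 calls in DETCs by limma and edgeR and 1 by DESeq2, with 2 at an unadjusted p under 0.05 in limma. Over all genes, limma, edgeR and DESeq2 called 7.23%, 12.4% and 12.4% in KCs and 3.56%, 3.35% and 7.48% in DETCs.

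Among 24 genes of the PI3K and AKT pathway and 23 regulators of FOXO proteins, few were called. In DETCs these were Ppp2ca, a catalytic subunit of the phosphatase PP2A (6686, 8000 and 7777 in WT, 11518 and 11422 in LC-/-, difference 0.62, limma adjusted p = 0.0279), and Sirt1, a deacetylase that acts on FOXO proteins (2218, 2517 and 2373 in WT, 3789 and 3474 in LC-/-, difference 0.62, limma adjusted p = 0.0198). Both were higher in LC-/- DETCs without overlap. With 1 DETC library left out at a time, Ulk1 and Ppp2ca were each called in 1 of 5 fits and Sirt1 in 2 of 5, with limma adjusted p up to 0.165, 0.136 and 0.106. In KCs the called genes were Phlpp2, a phosphatase that acts on AKT (0.73, limma adjusted p = 0.0286), Pik3r1, a regulatory subunit of PI3K (-0.46, limma adjusted p = 0.0479), Mdm2, an E3 ubiquitin ligase (0.81, limma adjusted p = 0.0193), and Usp7, a deubiquitinase (0.26, limma adjusted p = 0.0442). Over all these lists without the members, 117 genes were tested. In KCs 8 were called higher and 4 lower (10.3%, beside 7.23% of all genes), one of the latter, Ripor2, at 2, 1 and 1 reads against 0, and in DETCs 4 were called higher and 1 lower (4.27%, beside 3.56%). Of the genes called in KCs, Irs1, Mdm2, Phlpp2 and Usp7 were each called in 1 of the 6 fits that left out a KC library, and Sesn2, Gabarapl1 and Pik3r1 in 0 of 6. Over all genes those fits called 5 to 721, beside 1042 with all KC libraries.

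The 18 genes related to the members by sequence gave 6 calls in KCs by limma, beside 7.23% of all genes. In DETCs they gave 0 calls by limma and edgeR, beside 3.56% and 3.35% of all genes, with 4 at an unadjusted p under 0.05 in limma and 3 called by DESeq2, beside 7.48%. Arrdc3, an arrestin-domain gene related to Txnip, went the same way as Txnip in KCs. Arrdc3 measured 1711, 1632 and 1814 in WT KCs and 921, 902 and 801 in LC-/- KCs, a difference of -0.98 (SE 0.07, limma adjusted p = 0.0169) with no overlap, called in 3 of the 6 fits that left out a KC library. In DETCs Arrdc3 had 2431, 2132 and 2409 in WT and 2547 and 2557 in LC-/-, a difference of 0.14 (limma adjusted p = 0.464). The interaction of 1.11 (SE 0.12, limma adjusted p = 0.00257) was called in all 11 fits that left out a library. Arrdc4, another relative of Txnip, was higher in LC-/- KCs (difference 0.52, limma adjusted p = 0.0293), as were the Krüppel-like factors Klf7 (0.49, limma adjusted p = 0.0300) and Klf5 (0.41, limma adjusted p = 0.0330). Arrdc4, Klf7 and Klf5 were called in 0 of the 6 fits that left out a KC library, which called 5 to 721 of all genes. Relatives of Txnip thus differed in direction in KCs.

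**Figure D5:**
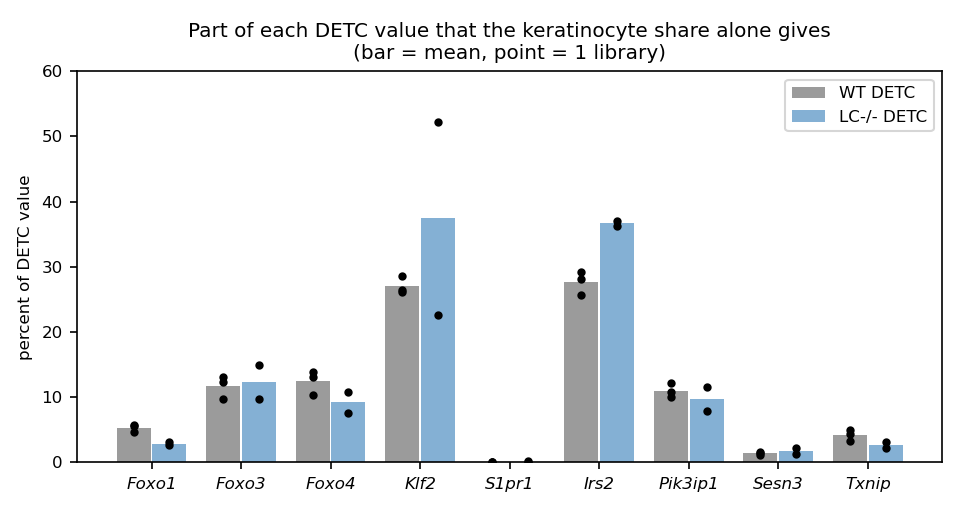
Percent of each gene's value in the DETC libraries that KC transcripts at the estimated share would supply (vertical axis), with points for libraries and bars for the means of WT (grey) and LC-/- (blue) DETCs. The part is small for S1pr1, Sesn3, Txnip and Foxo1 and largest for Klf2 (up to 52.3%) and Irs2 (up to 37.1%).

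As a description of the pattern that chose the set, genes were ranked by the Pearson correlation with Foxo1 over the 11 libraries, on log2 values less the WT mean of each population. Among 12321 genes, Usp22 (0.986), Txndc17 (0.985), Jmy (0.983), Tshz1 (0.982) and Ppm1g (0.981) were most like it. All such values rest on the same 2 LC-/- DETC libraries and share their composition. Of the members, Foxo4 had 0.874, Foxo3 0.398, Irs2 0.319, Txnip 0.318, Pik3ip1 0.145, Sesn3 -0.08 and Klf2 -0.35. S1pr1, too low in KCs, was left out of the ranking.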

How the data were processed

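Sorted KCs and DETCs of WT and LC-/- mice were profiled by RNA-seq. The deposited signal values are gene read counts that the authors divided by a median-of-ratios size factor per library. The build named in the labels is GRCm38, and 52403 of 52550 gene IDs matched GENCODE symbols. Multiplying back by the size factor gave whole reads for 100.0% of values above 0 (tolerance 0.002 reads), so depth is known. Tested genes had a CPM over 1 in at least 2 libraries. The main test was limma 3.58.1 in R 4.3.3 on log2(normalised count + 1), eBayes with trend, Benjamini-Hochberg over 14419 genes, within KCs, within DETCs, over all groups for the interaction, and between WT populations. The pseudocount shrinks differences of low genes. edgeR 4.0.16 and DESeq2 1.42.0 on the recovered reads, other pseudocounts, filters and normalizations, a fit without trend, a fit over all groups, subtraction of the KC share and left-out libraries were alternatives. The KC share of a DETC library is the median, over 24 keratinocyte genes, of its value over the KC mean of its genotype. No fold is given in KCs where both groups were at or under a floor of 3 normalised reads, as for S1pr1. Intervals on reads cover counting error only. The scripts were tested on simulated data. The members and gene lists were chosen with earlier results of these data known. Named were all members, the genes called in each list (at most 4 per direction and contrast, by adjusted p) and the 5 genes most like Foxo1; Tcf7 and Lef1 were added after their values had been seen.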

Additional observations from a re-analysis of the deposited data

Results flagged for a closer look

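Among the members and list genes given a test of the difference between populations, 2 had genotype effects that differed between DETCs and KCs by the interaction term in limma. Arrdc3 differed by 1.11 on the log2 scale (adjusted p = 0.00257), with a difference of -0.98 in KCs and 0.14 in DETCs. Foxo4 differed by 0.74 (adjusted p = 0.0217), with -0.25 in KCs and 0.48 in DETCs. With the number in the library label as a replicate block, Foxo4 was at 0.72 and was not called (limma adjusted p = 0.141), while Arrdc3 was still called.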

How the results depend on the processing

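Counts of called genes moved with the settings as follows, and the cause was not tested. Over all genes, the 1042 calls in KCs became 1617 with no filter on low values, 633 after quantile normalization, 1783 with edgeR and 1752 with DESeq2, and 5 to 721 with 1 library left out. The 514 calls in DETCs became 263 after quantile normalization, 0 with limma without trend (where unadjusted p-values under 0.05 numbered 1554 for higher and 853 for lower genes), 1079 with DESeq2, 959 in the fit over all groups and 7 after subtraction of the KC share, and 35 to 590 with 1 library left out. The 115 calls of the interaction became 22 without trend and 312 with DESeq2, and 32 to 138 with 1 library left out. Over the pathway lists, the 12 calls in KCs became 23 with no filter, 26 with edgeR, 29 with DESeq2 and 24 in the fit over all groups (0 to 5 with 1 library left out), the 5 in DETCs became 0 without trend, 16 with DESeq2, 13 in the fit over all groups and 0 after subtraction (0 to 7), and the 1 of the interaction became 2 after quantile normalization and 7 with DESeq2 (1 to 1). Of the 8 members other than Foxo1, the 2 calls in KCs became 0 after quantile normalization (0 to 1 with 1 library left out), the 1 in DETCs became 0 after quantile normalization, without trend and after subtraction (0 to 0), and the 1 of the interaction became 0 without trend and 2 with DESeq2 (0 to 1). With 1 LC-/- DETC library, that library is assumed to vary like the WT libraries. Signs of uncalled members turned. In DETCs, Foxo3 was -0.0537 after quantile normalization (-0.0529 to 0.12 with 1 library left out), and Txnip was -0.0156 with TMM factors, -0.20 after quantile normalization, -0.0207 with edgeR and -0.0055 with DESeq2 (-0.0260 to 0.12). The interaction of Sesn3 was -0.23 after quantile normalization and -0.00069 with edgeR (-0.12 to 0.19). With 1 library left out, Sesn3 ran from -0.18 to 0.0426 in KCs and from -0.21 to 0.10 in DETCs, Klf2 from -0.59 to 0.0691 and Irs2 from -0.00757 to 0.51 in DETCs, and the interactions of Klf2 from -0.36 to 0.29 and of Irs2 from -0.37 to 0.14. KC and DETC libraries share only a number. Their deviations from group means correlated at -0.0586, 0.0736, 0.120, 0.156 and 0.128 for W1, W2, W3, L2 and L3 over 14039 genes, and 4 of 5 DETC libraries correlated best with the KC library of their own number. With the number as a replicate block, the interaction gave 18 calls over all genes and 0 members, with Foxo4 at 0.72 (adjusted p = 0.141) and Arrdc3 at 1.15 (adjusted p = 0.0258).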
